A study of Homo sapiens with 6 samples.

Results

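The 10 genes described here are *ATF4* and 9 of its established stress targets: *ATF5*, *DDIT3*, *TRIB3*, *CHAC1*, *ASNS*, *SESN2*, *PPP1R15A*, *CEBPG* and *STC2*. They were picked by symbol and matched through GENCODE to 1 Ensembl identifier each among the 21475 genes of the tables. All 10 also passed the minimum mean level of 0.5 FPKM that left 12241 genes for testing. The rule uses no measured value, but the members were chosen with earlier results of these data known.

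RNA was sequenced from HaCaT cells, a spontaneously immortalized human keratinocyte line, with 3 WT and 3 *FGFR2* KO cell lines and 1 library per line. The KO lines carried a CRISPR/Cas9-induced disruption of *FGFR2*, the gene of an FGF receptor of keratinocytes, and each was grown from a single sorted cell. The sequenced WT lines are given in the study as clonally expanded (it also kept the unsorted original population as a WT line), so that a difference between lines of 1 genotype also holds differences between clones. All lines grew in serum-containing medium with no added stressor or cytokine. The labels number the replicates and do not say whether same-numbered lines were handled together.

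The integrated stress response starts when a kinase senses amino acid shortage, misfolded protein in the endoplasmic reticulum (ER), viral double-stranded RNA or heme shortage and phosphorylates the translation initiation factor eIF2α. Most translation then slows, while the mRNA of the transcription factor ATF4 is translated more efficiently through its upstream open reading frames. ATF4 pairs with other bZIP proteins and turns on genes of amino acid supply, redox balance and, under lasting stress, cell death. Since ATF4 is largely set at the level of translation, its mRNA is no measure of its protein, and no protein was measured in these libraries.

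ATF4 dimers with C/EBP proteins bind a composite element (CARE) whose core reads TGATGNAA, while the cAMP response element (CRE) of related bZIP factors has the core TGACGTCA. Promoters from RefSeq on GRCh38.p14, which span 250 bases before to 50 bases after each start, were searched for both cores on both strands. The cores cannot match the same 8 bases. All 10 members had at least 1 promoter in the table. The CARE core was present in *CHAC1*, *ASNS* and *CEBPG* (3 of 10) and the CRE core in *PPP1R15A* (1 of 10). Among all 27305 genes with a promoter, 4.46% held the CARE core and 2.25% the CRE core. Below, each matched core is in capitals within 30 bases, read in the direction of the gene. These windows are shown because they hold the letters that the factor named above is known to bind.
*ASNS*, chr7:97872458-97872487, minus strand: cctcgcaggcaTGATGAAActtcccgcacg
*CHAC1*, chr15:40953251-40953280, plus strand, core on the opposite strand: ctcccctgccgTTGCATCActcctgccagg
*CEBPG*, chr19:33374060-33374089, plus strand: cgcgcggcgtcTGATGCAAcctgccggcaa
*PPP1R15A*, chr19:48872352-48872381, plus strand: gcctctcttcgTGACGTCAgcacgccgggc
The core lay 68 to 61 bases before 1 of the 2 starts of *ASNS* in the table, 209 to 202 bases before the start of *CHAC1*, 42 to 35 bases before 1 of the 2 starts of *CEBPG*, and 58 to 51 bases before the start of *PPP1R15A*. None of the 4 cores lay in an exon of the MANE reference transcript, but those of *ASNS*, *CHAC1* and *PPP1R15A* lay in exons of other annotated transcripts. A match describes letters in this window and not a bound site, and the lack of a match in the other members covers these windows alone.

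The libraries held an estimated 67700000 to 87800000 fragments, read from the steps between low values. *FGFR2* was at 21.6, 39.7 and 15.0 FPKM in the WT and at 3.04, 2.26 and 4.31 FPKM in the KO libraries, so every KO library held less of the targeted mRNA than every WT library. Basal keratins were abundant in all 6 libraries, with *KRT5* between 6086 and 14770 FPKM. The summed FPKM of 5 immune markers was 11.7 to 20.8 in the WT and 4.53 to 10.98 in the KO libraries, nearly all of it *CD68* (4.41 to 20.4 FPKM), with *PTPRC* of leukocytes at most 0.153 FPKM. The 5 melanocyte markers summed to 3.06 to 5.58 and 1.24 to 4.86 FPKM, with *MITF* up to 4.01 and *PMEL* up to 2.43 FPKM, while *MLANA* and *TYR* were at most 0.0112 and 0.0208 FPKM. The 5 fibroblast markers summed to 7.74 to 17.6 and 6.88 to 12.3 FPKM, mostly *COL1A1* (up to 16.7 FPKM), and the 4 endothelial markers to 18.2 to 27.2 and 5.82 to 17.5 FPKM, mostly *VWF* (up to 27.1 FPKM), with *KDR* listed at 0 throughout. The part of these markers in the results was not tested. Genes of the mitochondrial chromosome took 21.5% to 27.6% of the summed FPKM in the WT and 11.9% to 23.7% in the KO libraries. Along the first principal component, with 49.1% of the variance, the extremes were WT replicate 2 (lowest) and KO replicate 3 (highest).

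In the comparison of KO with WT, none of the 10 members passed the threshold, which asked for an adjusted p no higher than 0.05 together with a difference of 0.5 or more on the log2 scale. The same held for all 12241 tested genes, since limma on log2(FPKM + 0.5) called 0.0% of them, with no adjusted p under 0.261. Even the targeted gene *FGFR2* was not called (log2 fold change -2.73, SE 0.36, limma adjusted p = 0.261). The study, which used DESeq2, did report differentially expressed genes between these genotypes. A lack of calls here is therefore not a lack of change. At an unadjusted limma p of at most 0.05, 1677 genes (13.7%) were higher and 388 genes (3.17%) were lower in the KO lines, whereas weighting the libraries by their estimated quality called 1396 genes. The split was 1130 higher and 785 lower after quantile normalization, 1064 and 764 after median-of-ratios scaling, and 1338 and 584 after scaling to the nuclear genes. Of the members, *STC2* alone had an unadjusted p of at most 0.05 and was higher, which is 1 of 10 against the 13.7% of all genes, and 0 of 10 were lower, against 3.17%. All KO libraries lay above all WT libraries for *ATF5* alone (1 of 10, against 18.3% of all genes), and no member had all KO libraries below all WT libraries (against 5.77%). All 4 shares were under those of all genes, so the counts set the members apart in neither direction. With 3 lines against 3, the smallest p that an exact two-sided permutation test can give for a single gene is 0.1.

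The fitted log2 fold change was above 0 for 7 members and below 0 for 3, beside 60.6% of all tested genes above 0. The median was 0.26 over the members and 0.09 over all tested genes. Without KO replicate 1 the median of the members was 0.07, no higher than the 0.09 of all genes in that fit, without WT replicate 2 it was 0.17, without KO replicate 2 it was 0.38, and with library weights it was 0.40. The plot of fold changes shows that all but *STC2* lay within 0.65 of 0 on the log2 scale. In this type of bulk sample, fewer cells with a transcript and less transcript per cell cannot be told apart.

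**Figure D1:**
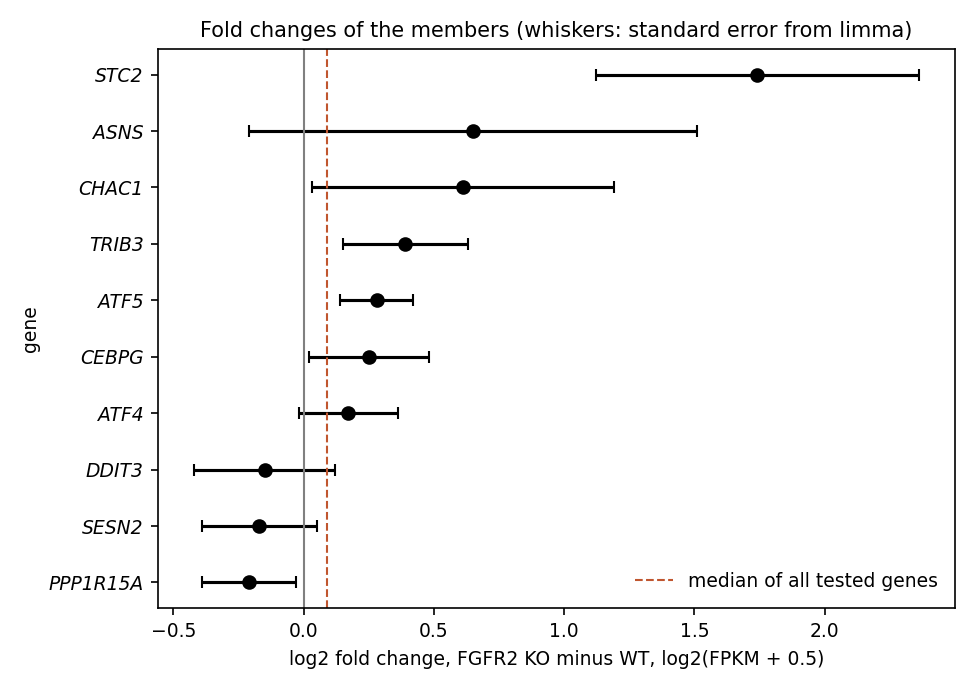
Fitted log2 fold change (KO minus WT, on the log2(FPKM + 0.5) scale) of the 10 members, with the standard error from limma as whiskers; the dashed line is the median of all tested genes, 0.09. *STC2* stands at 1.74 and the other 9 members between -0.21 and 0.65, and the whiskers of *ASNS*, *ATF4*, *DDIT3* and *SESN2* cross 0.

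*ATF4* (ENSG00000128272; chr22:39519695-39522683, plus strand, GRCh38) encodes the factor that gives the response its name. It was by far the most abundant member per length, at 152, 153 and 209 FPKM in the WT libraries and at 229, 163 and 185 FPKM in the KO libraries, in the order of replicates 1 to 3 as in all later lists. The highest KO and the highest WT library stood above the other 4, and the groups overlapped. The mean over the WT lines was 171 ± 32.7 FPKM and that over the KO lines 192 ± 33.9 FPKM (SD, n = 3 per genotype), a log2 fold change of 0.17 with a standard error of 0.19 (limma adjusted p = 0.670). It was 0.03 without KO replicate 1 and 0.32 without WT replicate 3. GENCODE lists 4 pseudogene copies of *ATF4* in the genome, which are not analysed here, and reads of a copy could be counted with the gene or the reverse.

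*ATF5* (ENSG00000169136; chr19:49928702-49933935), a bZIP factor whose mRNA is under the same kind of translational control as that of *ATF4*, had the tightest values of the set. It was at 17.7, 18.0 and 18.8 FPKM in the WT and at 19.4, 23.4 and 23.9 FPKM in the KO libraries. Every KO library thus lay above every WT library, but the lowest KO library was only just above the highest WT library. The log2 fold change was 0.28 (SE 0.14, limma adjusted p = 0.337), and the exact two-sided permutation p was 0.1, the smallest that 3 against 3 allows. With quantile normalization, median-of-ratios scaling or scaling to the nuclear genes, the groups of *ATF5* overlapped. *ATF5* overlaps *NUP62* and *IL4I1* on the opposite strand. The library kit keeps strand, but whether the counting used it is not given in the sources used here.

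*DDIT3* (ENSG00000175197; chr12:57516588-57521737), which encodes the factor CHOP that promotes cell death under lasting ER stress, was at 6.95, 12.6 and 6.31 FPKM in the WT and at 8.55, 7.08 and 6.63 FPKM in the KO libraries. WT replicate 2 held the highest level and the other 5 libraries lay close together. The log2 fold change was -0.15 (SE 0.27, limma adjusted p = 0.790), and without WT replicate 2 it turned to 0.15. *DDIT3* overlaps *MARS1* and *MBD6* on the opposite strand, with the same limit on strand. It also overlaps another protein-coding gene model and a microRNA gene on its own strand, whose reads strand could not separate.

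*CEBPG* (ENSG00000153879; chr19:33373685-33382686), a C/EBP protein that forms dimers with ATF4, was at 5.68, 5.64 and 6.94 FPKM in the WT and at 9.09, 5.22 and 8.12 FPKM in the KO libraries. KO replicates 1 and 3 were above all WT libraries, while KO replicate 2 was the lowest of the 6. The log2 fold change was 0.25 (SE 0.23, limma adjusted p = 0.589), and it ran from 0.10 without KO replicate 1 to 0.47 without KO replicate 2.

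The members that dampen the response had fold changes of either sign. *TRIB3* (ENSG00000101255; chr20:362835-397559), a pseudokinase that binds ATF4 and CHOP and limits their activity, was at 20.9, 21.7 and 31.0 FPKM in the WT and at 33.6, 23.3 and 40.9 FPKM in the KO libraries. KO replicate 2 lay among the WT lines and the other 2 KO lines lay above them, for a log2 fold change of 0.39 (SE 0.24, limma adjusted p = 0.434) that ran from 0.21 without KO replicate 3 to 0.61 without KO replicate 2. *PPP1R15A* (ENSG00000087074; chr19:48872212-48876059) encodes GADD34, the inducible subunit that brings a phosphatase to eIF2α. It was at 23.6, 25.7 and 24.4 FPKM in the WT and at 20.8, 26.6 and 17.0 FPKM in the KO libraries. The WT lines were almost level, whereas the KO lines spread on both sides of them (log2 fold change -0.21, SE 0.18, limma adjusted p = 0.558, -0.06 without KO replicate 3 and -0.38 without KO replicate 2).

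Of the effectors, *ASNS* (ENSG00000070669; chr7:97851677-97872542, minus strand), asparagine synthetase, varied most. It was at 6.86, 2.92 and 31.1 FPKM in the WT and at 35.0, 6.34 and 12.2 FPKM in the KO libraries. The highest WT line thus held 10.7 times the level of the lowest WT line, and the highest KO line held 5.52 times that of the lowest KO line. The ratio of the group means was 1.31, far smaller than either spread. The log2 fold change was 0.65 (SE 0.86, limma adjusted p = 0.714) and became -0.07 without WT replicate 2 and 1.53 without WT replicate 3. *ASNS* ranked 79 of 12241 tested genes by the within-group SD of log2(FPKM + 0.5), which was 1.43 for *ASNS* beside a median of 0.24 over all tested genes. GENCODE lists 4 pseudogene copies of *ASNS*, not analysed here.

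*CHAC1* (ENSG00000128965; chr15:40952962-40956512), an enzyme that degrades glutathione, was the member with the lowest level. It was at 0.908, 0.470 and 3.32 FPKM in the WT and at 4.17, 1.02 and 2.11 FPKM in the KO libraries. As for *ASNS*, WT replicate 3 and KO replicate 1 were the highest, and WT replicate 2 was the lowest. On the length of its MANE transcript these levels correspond to an estimated 48 to 556 fragments per library, so counting error was small beside the spread between lines. The log2 fold change was 0.61 (SE 0.58, limma adjusted p = 0.603), with 0.19 without WT replicate 2 and 1.18 without WT replicate 3.

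*STC2* (ENSG00000113739; chr5:173314723-173328447, minus strand), which encodes the secreted glycoprotein stanniocalcin 2, differed most between the genotypes. It was at 1.67, 0.863 and 4.85 FPKM in the WT and at 15.8, 3.52 and 8.40 FPKM in the KO libraries. KO replicates 1 and 3 exceeded all WT lines, but WT replicate 3 exceeded KO replicate 2, so the groups overlapped. The KO mean of 9.26 ± 6.21 FPKM was 3.76 times the WT mean of 2.46 ± 2.11 FPKM (SD, n = 3 each). The log2 fold change of 1.74 (SE 0.62) had an unadjusted limma p of 0.0245 and a limma adjusted p of 0.261, and the exact two-sided permutation p was 0.2. Leaving out 1 library at a time gave 1.25 to 2.28, and the unadjusted p was above 0.05 without WT replicate 1, WT replicate 2, KO replicate 1 or KO replicate 3. With library weights it reached 2.22 and a limma adjusted p of 0.0347, the 1 setting in which a member was called. Those weights gave WT replicate 1 a weight of 10.3 and the other 5 libraries between 0.358 and 1.495, so that WT replicate 1 carried most of the WT level.

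*SESN2* (ENSG00000130766; chr1:28259518-28282491), a leucine-binding inhibitor of mTORC1, was at 6.39, 9.69 and 8.05 FPKM in the WT and at 8.71, 7.05 and 5.53 FPKM in the KO libraries. WT replicate 2 was highest and KO replicate 3 lowest, with full overlap between the groups (log2 fold change -0.17, SE 0.22, limma adjusted p = 0.703, -0.32 without WT replicate 1 and -0.02 without KO replicate 3).

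**Figure D2:**
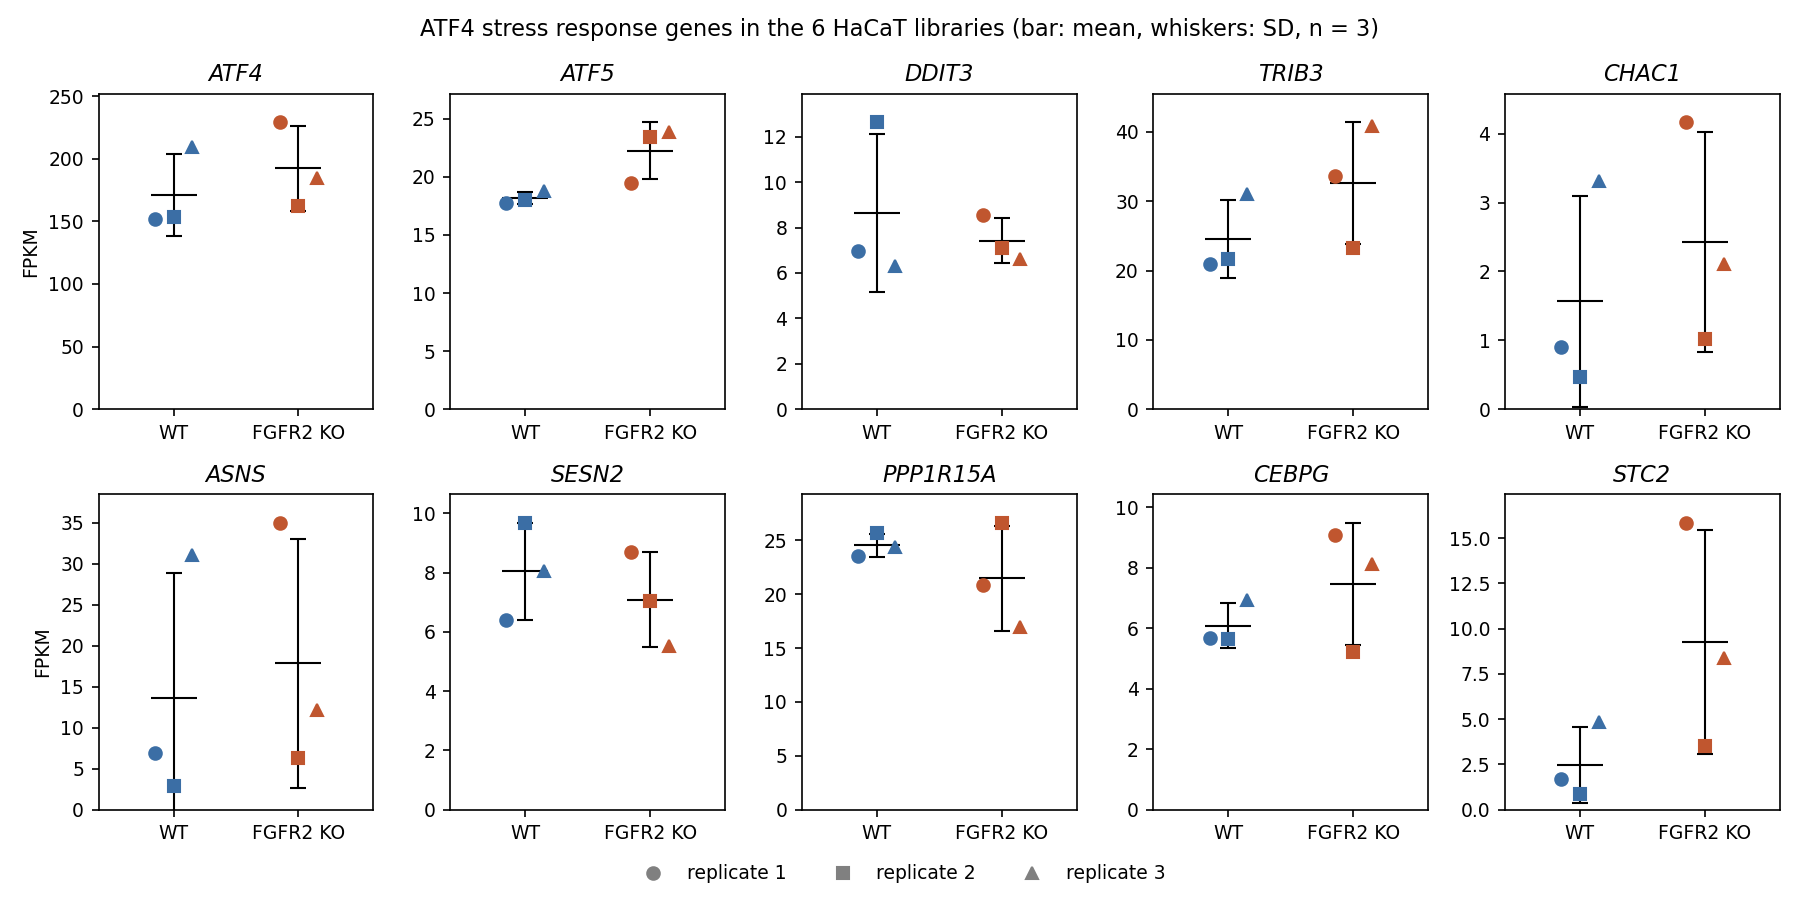
FPKM of each member in each library (points, with the marker shape giving the replicate number), with the mean as a bar and the SD as whiskers for 3 WT and 3 *FGFR2* KO lines; each vertical axis starts at 0, where the lower whisker of WT *ASNS* is cut off. WT replicate 3 (31.1 FPKM) and KO replicate 1 (35.0 FPKM) stand apart for *ASNS*, and *ATF5* is the only panel in which the groups do not overlap.

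Between lines of the same genotype, most members spread more widely than the typical gene. The median within-group SD of the members was 0.33, against 0.24 for all tested genes, and 8 of 10 members were above that median, led by *ASNS* at 1.43, *STC2* at 1.01 and *CHAC1* at 0.92. *PPP1R15A* at 0.23 and *ATF5* at 0.12 were under it. No test was made of this difference, because the genes of a library are not independent.

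The order of the lines was shared by some members and not by others. For *ATF4*, *CHAC1* and *ASNS*, WT replicate 3 and KO replicate 1 were the 2 highest libraries. That pattern was looked for after these values had been seen. It held for 3 of 10 members (30%) and for 860 of all tested genes (7.03%). *STC2*, *CEBPG* and *TRIB3* were highest in KO replicates 1 and 3. *DDIT3* and *SESN2* were highest in WT replicate 2, the line in which *ASNS*, *CHAC1* and *STC2* were lowest.

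Over the 6 libraries, Pearson's r of log2(FPKM + 0.5) was 0.97 between *ATF4* and *CHAC1*, 0.95 between *ATF4* and *ASNS*, and 0.99 between *CHAC1* and *ASNS*. After each group was centred on its own mean, these values were 0.97, 0.95 and 0.99. *STC2* had an r of 0.84 with *ASNS* over all libraries and of 0.98 within groups. *DDIT3*, by contrast, had an r of -0.51 with *ASNS* and of 0.73 with *SESN2*, and *PPP1R15A* had an r of -0.84 with *TRIB3*. The values in each correlation come from the same 6 libraries and share their depth and composition, so they are given as a description, without a p.

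**Figure D3:**
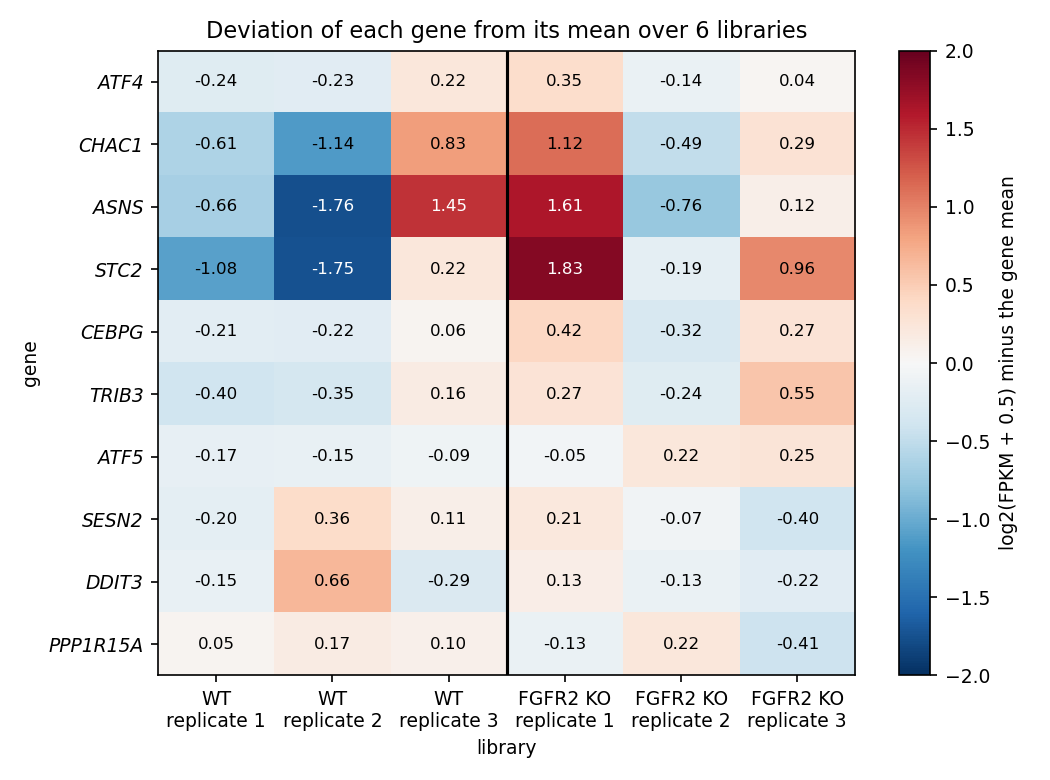
Deviation of log2(FPKM + 0.5) from the mean of each gene over 6 libraries (rows are genes, columns are libraries; red is above and blue is below the mean). *ASNS* reaches 1.45 in WT replicate 3 and 1.61 in KO replicate 1 and stands at -1.76 in WT replicate 2, where *DDIT3* stands at 0.66.

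The average profile of the 10 members, each centred on its own mean, was -0.37, -0.44 and 0.28 in the WT libraries and 0.58, -0.19 and 0.15 in the KO libraries. This mean was therefore lower in 2 WT lines and 1 KO line, and higher in 1 WT line and 2 KO lines. Members were not scaled, so those with the widest spread weighed most, and not all members followed the mean. With itself included, r with this mean was -0.52 for *PPP1R15A*, -0.35 for *DDIT3*, 0.05 for *SESN2* and 0.19 for *ATF5*. It was 0.82 for *TRIB3*, 0.89 for *CEBPG*, 0.94 for *STC2*, 0.95 for *ASNS*, 0.98 for *CHAC1* and 0.99 for *ATF4*. The genes outside the set that followed this profile most closely over the 6 libraries were *C21orf91* and *ACTR3* (r = 0.995 each), *TBCEL* (r = 0.992), *CDYL* and *FN1* (r = 0.991 each). They were picked for the highest r among all tested genes over only 6 libraries, and such a choice by itself yields high values. *ACTR3*, a subunit of the actin-nucleating Arp2/3 complex, ranged only from 80.1 to 104 FPKM. *FN1*, the matrix protein fibronectin, was at 1.27, 0.744 and 10.8 FPKM in the WT and at 18.2, 1.67 and 5.36 FPKM in the KO libraries. By the ratio of its highest to its lowest library, *FN1* varied more widely than *ASNS*. The summed FPKM of 10 keratinocyte markers was 17680, 12530 and 22420 in the WT and 34940, 17790 and 20010 in the KO libraries. Its order was that of *CHAC1*, with WT replicate 2 lowest and KO replicate 1 highest, and its part in the pattern of the members was not tested.

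The eIF2α kinases, which act before ATF4, were measured with the regulators of their activation. Of these 9 genes, 5 had a log2 fold change above 0, the median was 0.03, and 0 had an unadjusted limma p of at most 0.05 in either direction. All KO were above all WT libraries for 2 of 9, *EIF2AK2* and the GCN2 activator *GCN1*, against 18.3% of all tested genes. *EIF2AK4*, encoding GCN2, the sensor of uncharged tRNA, was at 44.3, 45.5 and 53.2 FPKM in the WT and at 53.1, 50.8 and 68.7 FPKM in the KO libraries (log2 fold change 0.26, SE 0.16, limma adjusted p = 0.428). *EIF2AK3*, encoding the ER sensor PERK, had a log2 fold change of -0.11 (SE 0.14), and *EIF2AK1*, encoding the heme-regulated kinase, one of -0.03 (SE 0.13). *EIF2AK2*, encoding the double-stranded RNA sensor PKR, was at 14.3, 12.4 and 14.4 FPKM in the WT and at 14.8, 16.4 and 19.6 FPKM in the KO libraries. All its KO values were above all WT values, and its log2 fold change was 0.29 (SE 0.16, limma adjusted p = 0.379). These are mRNA levels and say nothing of kinase activity.

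Of 11 subunits of eIF2 and eIF2B and related factors, 10 had a log2 fold change above 0 (all tested genes, 60.6%). Their median was 0.17, beside 0.09 over all tested genes, on FPKM without further scaling. An unadjusted limma p of at most 0.05 with a higher level was found for 2 of 11 (all tested genes, 13.7%), and all KO were above all WT libraries for 4 of 11 (all tested genes, 18.3%). *EIF2S1*, which encodes eIF2α itself, was at 46.7, 38.1 and 52.8 FPKM in the WT and at 63.9, 58.3 and 83.0 FPKM in the KO libraries (log2 fold change 0.57, SE 0.19, limma adjusted p = 0.261). *EIF2B3*, a subunit of the exchange factor that phosphorylated eIF2 inhibits, was at 8.58, 6.82 and 14.1 FPKM in the WT and at 17.7, 14.5 and 25.0 FPKM in the KO libraries (log2 fold change 0.95, SE 0.30, limma adjusted p = 0.261). For both genes the groups did not overlap. The constitutive phosphatase subunit *PPP1R15B* had a log2 fold change of 0.02 (SE 0.14), beside -0.21 for its inducible relative *PPP1R15A*.

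The amino acid genes controlled by ATF4 had larger median fold changes than the members themselves, without a called gene. Of 10 tested genes of amino acid synthesis and one-carbon metabolism, 8 had a log2 fold change above 0 (median 0.58). At an unadjusted limma p of at most 0.05, 4 of 10 were higher and 1 of 10 lower, against 13.7% and 3.17% of all tested genes. All KO were above all WT libraries for 0 of 10 and below them for 2 of 10, *ASS1* and *GOT1*, against 18.3% and 5.77%. *PYCR1*, the last enzyme of proline synthesis, was at 8.39, 6.36 and 14.1 FPKM in the WT and at 30.8, 13.8 and 32.8 FPKM in the KO libraries (log2 fold change 1.36, SE 0.39). *MTHFD1L*, a mitochondrial enzyme of formate production, had a log2 fold change of 1.43 (SE 0.49). *ASS1*, argininosuccinate synthetase, was at 385, 1046 and 428 FPKM in the WT and at 330, 331 and 222 FPKM in the KO libraries. All its KO values were below all WT values, and its log2 fold change was -0.94 (SE 0.38). The limma adjusted p of *PYCR1*, *MTHFD1L* and *ASS1* lay between 0.261 and 0.285. *GOT1*, the cytosolic aspartate aminotransferase, had a log2 fold change of -0.33 (SE 0.16, limma adjusted p = 0.336).

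Of 10 tested amino acid transporters, 7 had a log2 fold change above 0 (median 0.51), near the 60.6% of all tested genes. At an unadjusted limma p of at most 0.05, 2 of 10 were higher, against 13.7%, and 0 of 10 lower, against 3.17%. *SLC3A2*, the heavy chain shared by several exchangers, was at 148, 144 and 224 FPKM in the WT and at 332, 179 and 357 FPKM in the KO libraries (log2 fold change 0.72, SE 0.30, limma adjusted p = 0.290). The glutamine carrier *SLC1A5* had a log2 fold change of 0.76 (SE 0.32, limma adjusted p = 0.296). In both genes WT replicate 3 was above KO replicate 2, so the groups overlapped as for *STC2*.

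All 12 cytosolic tRNA synthetases had a log2 fold change above 0, with a median of 0.43, and 2 of them, *IARS1* (0.99, SE 0.33) and *WARS1* (0.75, SE 0.27), were higher at an unadjusted limma p of at most 0.05, against 13.7% of all tested genes. The limma adjusted p was 0.261 for both, and 0 of 12 had all KO above all WT libraries, against 18.3% of all tested genes. WT replicate 3 and KO replicate 1 were the 2 highest libraries for 4 of 12 synthetases, as for *ASNS*, beside 7.03% of all tested genes. This pattern, looked for after values had been seen, also held for 3 of 10 transporters and 2 of 10 genes of amino acid synthesis. It held for 2 of 10 bZIP partners and regulators of ATF4 stability, 2 of 16 other stress targets and 3 of 20 ER stress genes. An r with *ASNS* above 0.8 over the 6 libraries was found for 7 of 12 synthetases (58.3%), 5 of 10 transporters and 2 of 10 genes of amino acid synthesis, beside 4.5% of all tested genes. It was also found for 3 of 9 other members and 2 of 10 bZIP partners and regulators of ATF4 stability. Of ER stress genes of the ATF6 and XBP1 branches, 3 of 20 had it (highest r = 0.97). The count was 1 of 11 for eIF2 and eIF2B, 1 of 16 for other stress targets and 0 of 9 for eIF2α kinases. Genes with such an r included *GARS1* (r = 0.97) and the cystine exchanger gene *SLC7A11* (r = 0.96). Others were *PHGDH*, the first enzyme of serine synthesis (r = 0.96), and *PSAT1*, the next enzyme (r = 0.95). Of the 10 genes of amino acid synthesis, 3 had an r under 0, with a lowest of -0.67. The r of the 12 synthetases ran from 0.53 to 0.97. These r values describe libraries that are shared between the genes. Neither *ASNS* as the reference gene nor the threshold of 0.8 was planned, and both are applied to the same 6 libraries. The shares above 0.8 are thus a description and not a test.

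*PSAT1* was at 34.7, 18.0 and 99.2 FPKM in the WT and at 139, 41.9 and 89.7 FPKM in the KO libraries. WT replicate 2 was again the lowest and KO replicate 1 the highest. The CARE core was found in the promoters of 7 of 10 synthetases that matched the promoter table and of 5 of 10 transporters, but of only 2 of 7 genes of amino acid synthesis and 1 of 15 other stress targets, beside 4.46% of all genes. These 4 lists were written from known ATF4 targets. The core was also found for 2 of 8 bZIP partners and regulators of ATF4 stability and 2 of 20 ER stress genes. For eIF2 and eIF2B it was 1 of 10, and for the eIF2α kinases and their regulators 0 of 8.

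**Figure D4:**
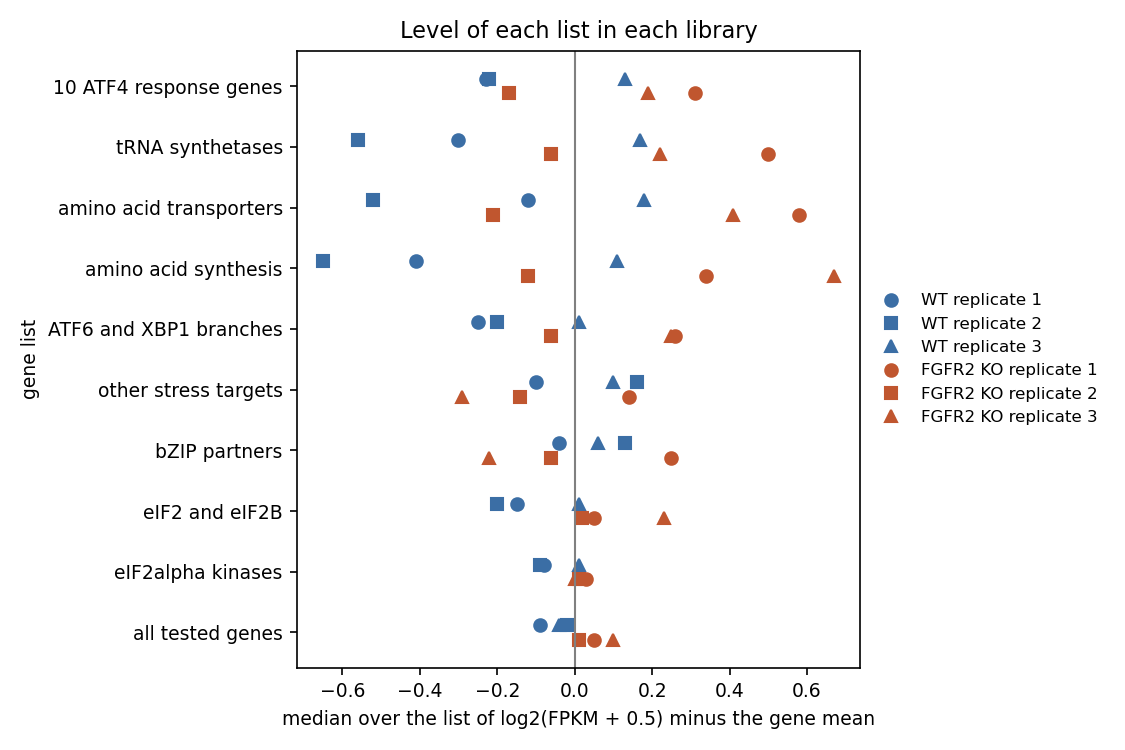
Median over each list of log2(FPKM + 0.5) minus the mean of each gene, for each of the 6 libraries (blue, WT; red, *FGFR2* KO; the marker shape gives the replicate number). The tRNA synthetases run from -0.56 in WT replicate 2 to 0.50 in KO replicate 1, with WT replicate 3 at 0.17 above KO replicate 2 at -0.06, and the eIF2α kinases stay between -0.09 and 0.03.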

How the data were processed

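The labels give HaCaT cells with 3 WT and 3 *FGFR2* KO replicates. That these are separate cell lines and that the mRNA libraries were stranded is taken from the study. The submitters' processing notes name fastp 0.20.0, kallisto 0.46.1 and GRCh38.p13, and the authors' methods name GENCODE release 37. The deposited values are FPKM, which the authors normalized for gene length and library depth; how FPKM were calculated is not given in the sources used here. Each table held 21493 rows, of which 18 Y copies of pseudoautosomal genes were left out, and 21400 of the remaining 21475 genes received a symbol from GENCODE release 44. In each library, 71.5% to 74.5% of low values were whole fragments within 0.05, against 10% by chance, too few to rebuild counts for nearly every gene, and no count test was run.

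The test was that of limma 3.58.1 (R 4.3.3) on log2(FPKM + 0.5) for genes whose mean reached 0.5 FPKM, with a mean-variance trend and Benjamini-Hochberg adjustment over all tested genes. A fold change on this scale understates the change of low genes. The p-values measure the spread between lines, with 1 library per line.

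The members and lists were chosen with earlier results of these data known. Named genes were *FGFR2*, the members, fixed regulators, up to 3 genes per list with the largest log2 fold change of at least 0.5 and an unadjusted p of at most 0.05, and the 5 genes most like the mean member profile. *PSAT1*, *PHGDH*, *SLC7A11*, *GARS1*, *GCN1*, *GOT1*, *ATF6* and *ATF6B* were named after their values were seen. Alternatives were other pseudocounts, filters, scalings, empirical Bayes settings, library weights, a replicate block and leaving out each library.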

Additional observations from a re-analysis of the deposited data

How the results depend on the processing

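Recomputed under the alternatives, 174 member log2 fold changes kept their direction and side of the threshold, 4 reversed and 1 passed it. With library weights, 1396 genes (1160 higher, 236 lower) and 1 member, *STC2*, were called, 5 members were higher at an unadjusted p of at most 0.05 (27.7% of all tested genes in that fit), and *DDIT3* (0.15) and *SESN2* (0.22) reversed. The cause was not tested. Without a filter on low values, 2 members were higher at that p (9.7% of all genes). Quantile normalization, median-of-ratios scaling and scaling to the nuclear genes left 0 members with all KO above all WT libraries. They also moved the share of higher genes among those with an unadjusted p of at most 0.05 from 81.2% to 59.0%, 58.2% and 69.6%. The median log2 fold change of all tested genes moved from 0.09 to -0.01, -0.00 and 0.01 in the same order. Counts and medians of the gene lists outside the members are given for FPKM without further scaling alone, so small fold changes in them could change sign. Leaving out 1 library gave 0 to 3 members higher at that p (0 without WT replicate 1, WT replicate 2 or KO replicate 3, and 3 without KO replicate 2; all genes, 6.63% to 17.2%), 1 to 5 members with KO above WT (5 without WT replicate 3, where 28.4% of all genes did so, and 4 without KO replicate 2, where 31.4% did) and 0 to 1 with KO below WT (all genes, 6.9% to 13%). Their log2 fold changes ran from -0.33 to 0.15 for *DDIT3* and from -0.07 to 1.53 for *ASNS*, both reversed without WT replicate 2 and at the other end without WT replicate 3. These fits called 0 genes in limma, with 812 to 2109 genes higher at the unadjusted threshold. With the replicate number as a block, limma called 0 genes and 0 members, with a smallest adjusted p of 0.0972, while 1727 genes were higher and 548 lower at the unadjusted threshold. In that fit *STC2* (SE 0.41) had an unadjusted limma p of 0.00537 and a limma adjusted p of 0.13. It was the only member higher at an unadjusted p of at most 0.05 (1 of 10, against 14.1% of all tested genes). Deviations of same-numbered lines correlated at -0.21, 0.22 and 0.05. So few values cannot settle whether same-numbered lines were handled together. With 3 lines per genotype, a difference as small as that of *ATF4* could not be told from the spread between lines.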

Other observations

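The ATF6 and XBP1 branches of the ER stress response, which run beside the PERK and ATF4 branch, had 16 of 20 genes with a log2 fold change above 0 (all tested genes, 60.6%) and a median of 0.31. Of these genes, 7 were higher and 1 lower at an unadjusted limma p of at most 0.05 (all tested genes, 13.7% and 3.17%), and 0 were called. All KO were above all WT libraries for 2 of 20 and below them for 1 of 20, against 18.3% and 5.77% of all tested genes. The lower gene was *ATF6B* (log2 fold change -0.54, SE 0.20, limma adjusted p = 0.268), while *ATF6* itself was at 0.08 (SE 0.14). *HSPA5*, the main ER chaperone, was at 112, 92.5 and 165 FPKM in the WT and at 192, 141 and 215 FPKM in the KO libraries (log2 fold change 0.59, SE 0.25, limma adjusted p = 0.295). *XBP1*, the factor spliced by the sensor IRE1, was at 18.4, 22.3 and 28.8 FPKM in the WT and at 41.1, 26.3 and 39.5 FPKM in the KO libraries (log2 fold change 0.61, SE 0.23, limma adjusted p = 0.271). In both genes WT replicate 3 was above KO replicate 2. *SDF2L1* (0.87, SE 0.35) and *CRELD2* (0.65, SE 0.23) had log2 fold changes of the same sign.

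Other stress targets of ATF4 had no common direction, with 7 of 16 tested genes above 0, beside 60.6% of all tested genes. At an unadjusted limma p of at most 0.05, 4 of 16 were higher, against 13.7% of all tested genes, and 4 of 16 lower, against 3.17%. *DDIT4*, an mTORC1 inhibitor that hypoxia and glucocorticoids also induce, was at 187, 353 and 151 FPKM in the WT and at 127, 125 and 82.5 FPKM in the KO libraries. All KO values were below all WT values, and the log2 fold change was -0.97 (SE 0.33, limma adjusted p = 0.261). *KLHL24* had a log2 fold change of -1.32 (SE 0.46) and *CBS*, the enzyme that forms cystathionine, one of 1.17 (SE 0.49). Of 10 tested bZIP partners and regulators of ATF4 stability, 1 was lower at that p (all tested genes, 3.17%), the stress-induced chromatin protein gene *NUPR1*, at 1.56, 1.48 and 2.48 FPKM in the WT and at 1.26, 0.423 and 0.0897 FPKM in the KO libraries. *ATF3*, which encodes a bZIP factor induced by ATF4, had a log2 fold change of 0.14 (SE 0.30).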
